A study of Mus musculus with 12 samples.

Results

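Quadriceps muscle of mice lacking Net39 was compared with that of wild-type (WT) mice at 17 days of age (P17), the later of the ages sampled in the study. The 6 P17 libraries, of 12 RNA sequencing libraries in the series, were taken by genotype and age alone: 3 from WT mice and 3 from Net39 knockout (KO) mice, each from 1 mouse of the C57BL/6 strain. Of the 24062 genes listed for these libraries, 12421 had a mean of at least 1 CPM (reads of a gene per 1000000 reads of its library) over the 6 libraries and were tested. Libraries are called WT1 to WT3 and KO1 to KO3 in the order in which they were listed, and the numbers pair no mice.

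The KO allele was made by deletion at exon 1 of Net39 with Cas9 and a pair of guide RNAs in B6C3F1 zygotes, and the line was then crossed to C57BL6N mice. The gene is disrupted in every cell of the animal, so muscle fibers were not altered on their own. PolyA RNA came from whole quadriceps and held the RNA of all cells in the muscle. Reads on genes numbered 34905953, 29970648 and 31777794 in WT1 to WT3 and 31447011, 30383049 and 26506783 in KO1 to KO3. A count of 3 reads, the upper limit that a count of 0 allows, stood for 0.0859 to 0.113 CPM, counting error only.

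Net39, also named Plpp7, is a membrane protein of the nuclear envelope that is abundant in muscle. The nuclear envelope is lined by lamins and carries inner membrane proteins that tether chromatin. Muscle fibers fall into fast and slow types that differ in their myosin heavy chain, their calcium handling proteins and their fuel: fast IIb fibers depend on glycolysis, while slow and IIa fibers are rich in mitochondria. Embryonic and neonatal myosins are normally replaced by adult forms in the weeks after birth.

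The deleted gene was read first. Net39, listed as Ppapdc3, had 3412, 2621 and 4926 reads in WT (97.7, 87.5 and 155 CPM) and 48, 13 and 19 reads in KO (1.53, 0.428 and 0.717 CPM), so each library lay on the side of its label. On the log2(CPM + 0.5) scale used throughout, it differed by -6.39 (SE 0.32, limma adjusted p 8.8e-06), or by -6.73 after centring. Values are given per gene, so the few reads of the KO libraries cannot be placed in what is left of exon 1 or in exon 2. A pair of the genotyping primers of the line lies in exon 1, which is 735 bases long in the Plpp7-201 transcript of GENCODE, build GRCm38. They are shown because they place the deletion, with capitals for the bases that match that exon. By its name the former primer serves the WT and the KO allele and the latter the WT allele only, so the site of the former would be kept in KO mice.
Net39-WT/KO-F: GCAGCTGGAGGTAAATAGCC
Net39-WT.only-F: GCAGATGTCAATAGCCAGCA
The former matches bases 144 to 163 of the transcript, chr2:32095671-32095690 on the forward strand. The latter matches bases 538 to 557 as its reverse complement, chr2:32096065-32096084.

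Markers of the tissue were present in all 6 libraries. All 12 skeletal muscle fiber markers were tested, and their summed level was 168235, 173213 and 156032 CPM in WT and 87382, 81899 and 75054 CPM in KO, with Acta1, the adult skeletal actin, the most abundant. The sum was lower in all KO mice. Of the 12 genes, 5 fell, or 6 after centring. Xist, transcribed from the inactive X chromosome of females, stood at 159, 144 and 197 CPM in WT and 234, 207 and 314 CPM in KO, and no Y-linked gene read had more than 1 read in any library.

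By a fold change above 2 and a Benjamini-Hochberg adjusted p under 0.05 in limma, 1824 of the 12421 genes (14.7%) were differentially expressed in KO quadriceps. Of these, 1373 rose (11.1% of all tested) and 451 fell (3.63%). The 451 genes that fell held 32.5%, 31.7% and 32.1% of the reads of the WT libraries and 6.9997%, 6.996% and 6.68% of those of the KO libraries. The 1373 genes that rose went from 6.44%, 6.72% and 6.48% of reads to 26.5%, 24.4% and 24.2%. Thus the smaller set of genes carried the larger share of WT reads, and the KO libraries were alike in both shares. The log2 fold change was above 3 for 83 of the risen genes and below -3 for 57 of the fallen ones.

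The direction of change across genes depended on the scaling. CPM are relative amounts that sum to 1000000 in each library, and over all tested genes the median log2 fold change was 0.35, a 1.27-fold higher level in KO. After each library was centred on its median gene, which brought this median to 0.01, 1498 genes passed (12.1%), with 732 risen (5.89%) and 766 fallen (6.17%). The share of risen genes among those called was 75.3% as deposited and 48.9% after centring. All of these 732 risen genes and all 451 fallen as deposited were called the same way under both scalings, together 9.52% of genes tested. A further 641 genes rose only as deposited and 315 fell only after centring, and none was called in opposite directions. Scaling factors from edgeR's TMM method lay between 0.866 and 0.899 in WT and between 1.08 and 1.18 in KO. Results are given below as deposited, with those after centring beside them, and counts of list members are to be read against these shares of all genes. The values of the groups were without overlap for 62.9% of all genes, so this separation on its own marks no gene or list.

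**Figure D1:**
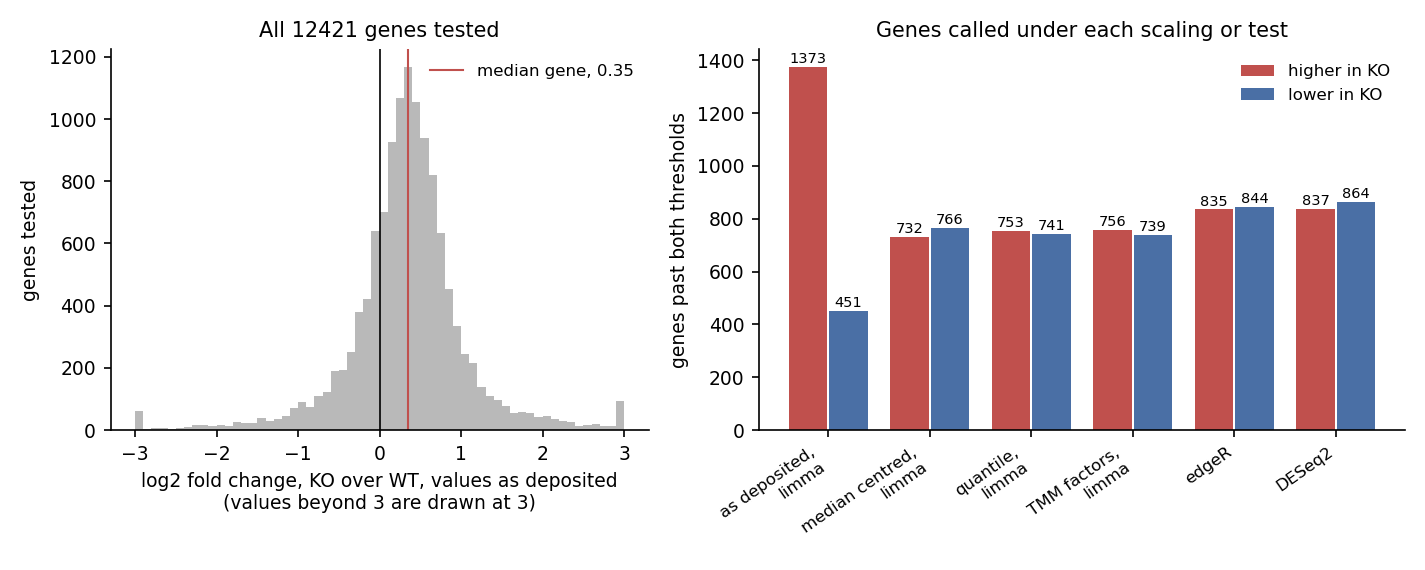
Left, number of tested genes by log2 fold change (KO over WT, log2(CPM + 0.5) scale, values as deposited), with lines at 0 and at the median gene. Right, number of genes that rose or fell under each scaling or test: risen genes outnumber fallen ones as deposited, and the numbers are close under the other scalings and with edgeR and DESeq2.

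Contractile genes held many of the largest changes on the log2(CPM + 0.5) scale. Of the 14 fast fiber proteins tested, 9 fell as deposited and 9 after centring, against 3.63% and 6.17% of all genes. Their median log2 fold change was -1.64, or -1.99 centred, and in 12 of the 14 the KO values all lay under the WT values, against 11% of all genes. In contrast, 15 of the 15 slow fiber proteins rose and 14 of them after centring, with a median of 1.99 (1.65 centred), against 11.1% and 5.89% of all genes. In all 15 the KO values lay over the WT values, a separation that 52% of all genes showed. Bulk RNA cannot tell apart fewer fibers of a type from less of its RNA per fiber.

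Among fast fiber genes the calcium buffer parvalbumin had the lowest fold change of all tested genes. Pvalb stood at 22733, 19592 and 19200.3 CPM in WT and 36.3, 11.6 and 8.11 CPM in KO (log2 fold change -10.35, SE 0.47, limma adjusted p 6.9e-06). It was thus among the most abundant transcripts in each WT library. The median tested gene stood at 19.8, 20.5 and 21.7 CPM in KO1 to KO3, so Pvalb lay above it in KO1 and below it in KO2 and KO3. Mybpc2, the fast form of myosin-binding protein C, measured 7840.2, 7977 and 8286 CPM in WT against 24.1, 11.1 and 10.98 CPM in KO (log2 fold change -9.08, SE 0.28). Actn3, the alpha-actinin of fast fibers, measured 8873, 8969.5 and 8898 CPM against 66.9, 17.5 and 18.6 CPM (log2 fold change -8.29, SE 0.46). In all 3 genes KO1 kept the highest level of the KO libraries, still far below WT. By size in CPM, the greatest falls were those of Myh4, Atp2a1, Ckm, Pvalb, Mylpf and Tpm1. The fast calcium pump Atp2a1 went from 38622 ± 2211 CPM (SD, n = 3) to 11192 ± 294 CPM, and the muscle creatine kinase Ckm from 30562 ± 2198 CPM to 7520.3 ± 234 CPM.

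Other fast fiber genes moved less. The fast troponins Tnnt3, Tnni2 and Tnnc2 had log2 fold changes of -0.59, -0.35 and -0.63 (-0.94, -0.70 and -0.98 centred) and did not pass the fold threshold in limma, although their KO values all lay below the WT values. After quantile normalization, which gives all libraries the same distribution, Tnnt3 and Tnni2 had the other sign (0.55 and 0.33), so their direction depends on the scaling. With DESeq2 Tnnc2 passed that threshold, at -1.01.

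Sarcolipin, a small inhibitor of the calcium pump of the sarcoplasmic reticulum, had the highest log2 fold change of all tested genes on the log2(CPM + 0.5) scale, which shrinks the change of genes near 0 in a group. Sln measured 4.96, 6.81 and 3.34 CPM in WT and 1165, 472 and 487 CPM in KO (log2 fold change 6.92, SE 0.37, limma adjusted p 1.3e-05). All KO values were far above WT, and KO1 was the highest. The slow calcium pump Atp2a2 rose from 200.2, 235 and 258 CPM to 1989, 2769 and 2507 CPM, and the slow Z-disc protein Myoz2 from 102, 125 and 93.1 CPM to 2671, 2008 and 1714 CPM. The groups did not overlap in these genes, with log2 fold changes of 3.38 and 4.30. Mybpc1, the slow myosin-binding protein, was the member that lost its call on centring (1.28 as deposited, 0.94 centred).

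Shares within a protein family do not depend on library scaling, so the use of isoforms was also compared as the share of each gene in the summed CPM per kilobase of its family. Over 25 such shares in 10 families, KO and WT values did not overlap for 24, at least 1 in each family. In 8 families of 2 genes the shares mirror each other, so a family there gives 1 result and not 2. Each of the 24 had an exact two-sided permutation p of 0.1, the smallest that 3 mice against 3 allow. The sizes of shares depend on the gene lengths used: without division by length 24 again did not overlap, but in 16 of 25 the difference between groups moved by more than the SD between mice. The share that overlapped was that of Tnnt2.

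In WT quadriceps the fast IIb myosin Myh4 made up 87.5, 86.9 and 88.6% of the myosin heavy chain total, and in KO 2.65, 2.48 and 2.17%. Myh2, the IIa form, took 1.495, 1.85 and 1.605% in WT and 56.1, 72.9 and 69.95% in KO. The leading myosin of every WT library was therefore IIb and that of every KO library IIa. Myh1, the IIx form, had shares of 10.5, 10.7 and 9.37% and 28.7, 17.2 and 22.5%, higher in KO although its CPM overlapped between groups. Slow Myh7 went from 0.4097, 0.486 and 0.364% to 5.89, 3.91 and 2.15%, and embryonic Myh3 and neonatal Myh8 to means of 2.33% and 2.14% from 0.0298% and 0.0448%. KO1 had the highest shares of these last 3 genes. The summed myosin level was lower in KO, at 3098.4, 3377 and 4094 CPM per kilobase against 8553, 7587 and 10921 in WT.

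Other families turned over as far. Mybpc2 had 87.4, 86.4 and 86.5% of the myosin-binding protein C total in WT and 0.766, 0.386 and 0.369% in KO, where Mybpc1 made up nearly all of it. Actn3 went from a mean of 89.2% of alpha-actinin to 0.603%. Its partner Actn2, present in all fibers, rose in CPM from 1392, 1535 and 1311 to 7667, 7219.6 and 6634 (log2 fold change 2.34). Even so the alpha-actinin sum was 0.552 of the WT level.

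In the other families of fast and slow forms the fast form stayed in the majority. The slow pump Atp2a2 went from a mean of 0.342% of the SERCA total to 10.98%, slow calsequestrin Casq2 from 0.855% to 15.1% and slow troponin T Tnnt1 from 0.541% to 8.67%. Troponin I and C moved less, with Tnni1 at 2.17% and Tnnc1 at 3.42% in KO. Within sarcomeric actin the change ran the other way in developmental terms: Actc1, the form of early muscle, made up 14.9, 12.5 and 14.9% in WT and 0.144, 0.199 and 0.1803% in KO. Family sums per kilobase were lower in all KO mice for 9 families, all but the acetylcholine receptor subunits.

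**Figure D2:**
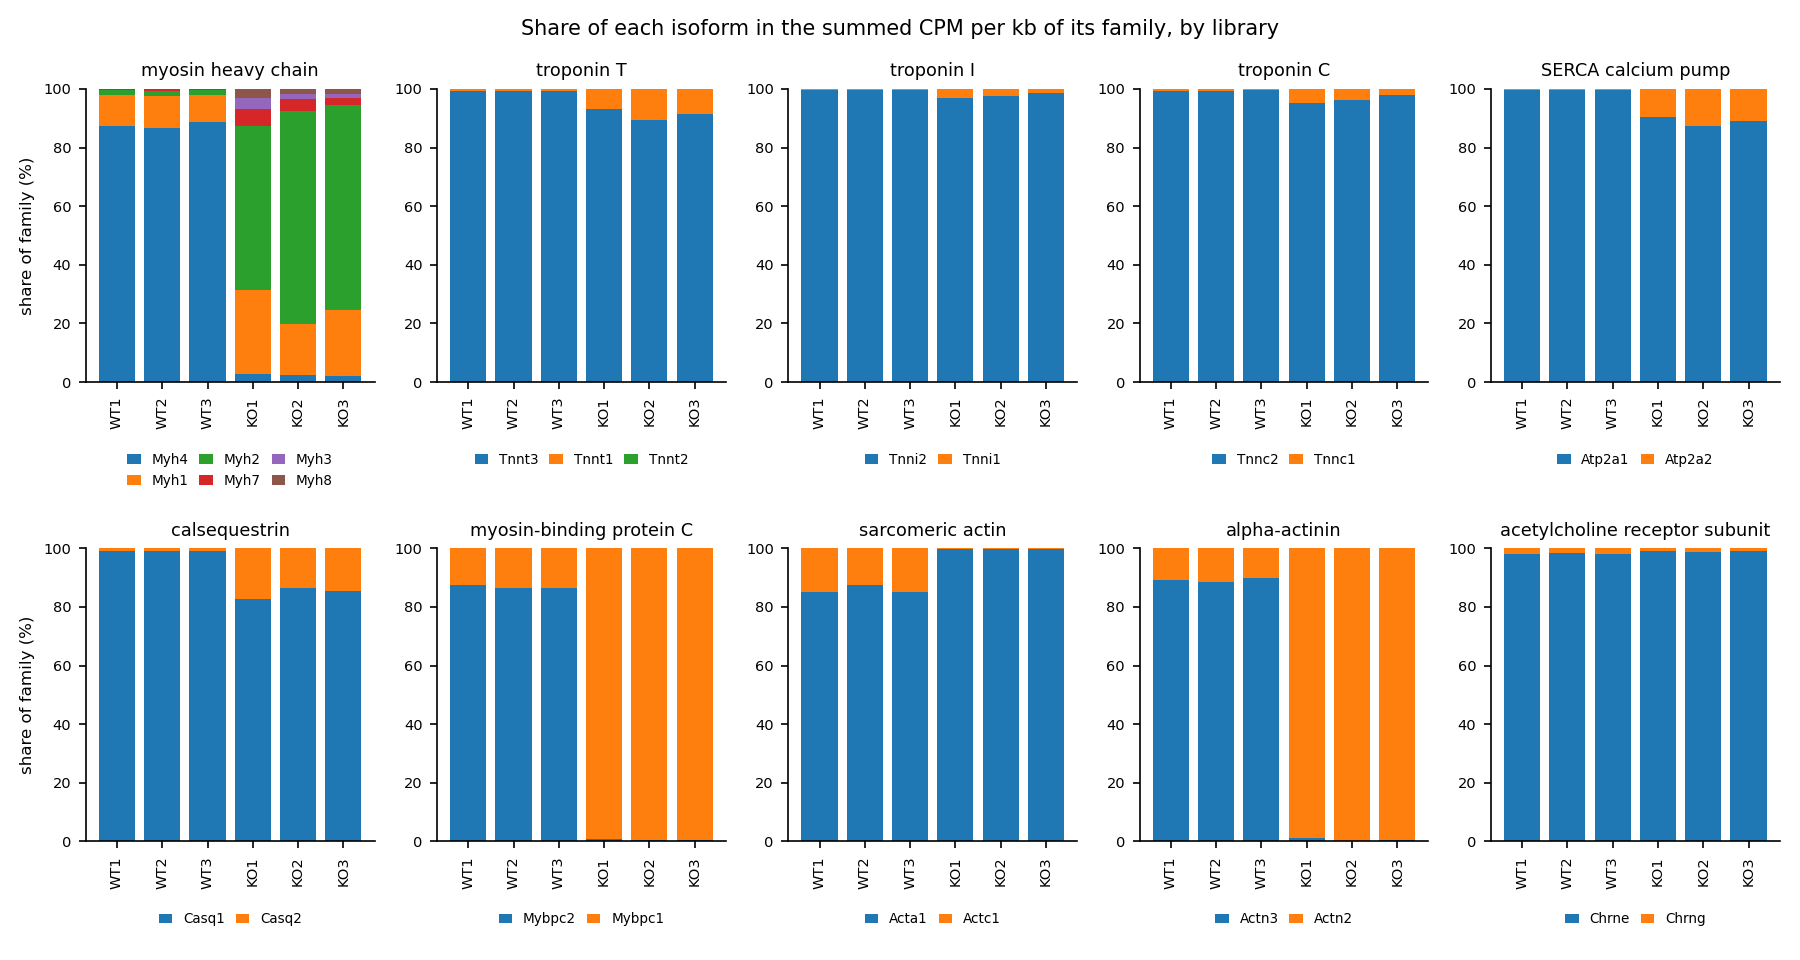
Share (%, vertical axis) of each gene in the summed CPM per kilobase of its family, 1 stacked bar per library, for 10 families. The leading gene changed between WT and KO in myosin heavy chain, myosin-binding protein C and alpha-actinin, and stayed the same in the other families.

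Developmental sarcomere genes moved in both directions: of 6 tested, 3 rose and 2 fell under both scalings (median 0.45, centred 0.10). Embryonic Myh3 measured 23.3, 9.98 and 14.98 CPM in WT and 694, 372 and 361 CPM in KO, and the embryonic light chain Myl4 12.4, 12.3 and 13.6 CPM and 40.2, 37.6 and 33.4 CPM. Actc1 measured 11659, 9153 and 9217 CPM in WT and 81.4, 96.1 and 72.8 CPM in KO (log2 fold change -6.90, SE 0.14), and Mybph, a relative of the myosin-binding proteins, 1251, 1396 and 1386 CPM and 17.2, 13.96 and 10.7 CPM. Genes of immature muscle were thus found at both ends of the list, and the groups did not overlap in these 4.

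Proteins of the Z-disc and of the response to stretch rose in 15 of 24 cases and fell in 2, and in 11 and 3 after centring (all genes 11.1% and 3.63%, and 5.89% and 6.17%), with a median of 1.25 (0.91 centred). The stretch-induced ankyrin repeat protein Ankrd2 stood at 40.97, 52.3 and 41.1 CPM in WT and 1548, 1765 and 1499.5 CPM in KO (log2 fold change 5.15, SE 0.13). The M-band protein Myom3 measured 44.2, 46.6 and 54.4 CPM against 609.9, 706 and 919 CPM, and the small heat shock protein Hspb7 269, 259 and 255 CPM against 2929.6, 3436 and 2859 CPM. All 3 were at least 10 times as high in each KO library as in any WT library. The LIM protein Fhl1 and the chaperone Cryab gained more CPM than most risen genes, from 939 ± 67.5 to 6388 ± 409.8 CPM and from 473 ± 62.3 to 4289 ± 478 CPM (SD, n = 3). On the other side, Ankrd23, a titin-binding relative of Ankrd2, measured 2005, 1998 and 2073 CPM in WT and 569, 375 and 355 CPM in KO, and the intermediate filament protein Synm had a log2 fold change of -1.94 (SE 0.15).

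Genes of excitation-contraction coupling, which link the membrane potential to calcium release, changed in part: 3 of 21 fell as deposited and 6 after centring, against 3.63% and 6.17% of all genes, with a median of -0.49 (-0.83 centred). These were Cacng1, a calcium channel subunit, Jph2, which ties the membranes of the triad, and Sypl2, a triad membrane protein, with log2 fold changes of -1.44, -1.66 and -1.66. Jph2 stood at 959.8, 1032 and 859 CPM in WT and 331, 287 and 279.8 CPM in KO, without overlap. The release channel Ryr1 overlapped between groups (1969, 2246 and 3486 CPM and 1823, 1621 and 2437 CPM). In the dystrophin complex only Dmd passed, of 14 genes (log2 fold change 1.17, 0.83 centred), and no member was called by limma after centring, where edgeR and DESeq2 each had 1 fallen gene. The list median was 0.34 (-0.004 centred), and 7 members had an unadjusted p under 0.05 as deposited, all on the higher side. By adjusted p alone, a stricter rule, 5702 of all 12421 genes were higher and 1093 lower. Without WT3 2 members rose, and without WT1 1 fell.

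**Figure D3:**
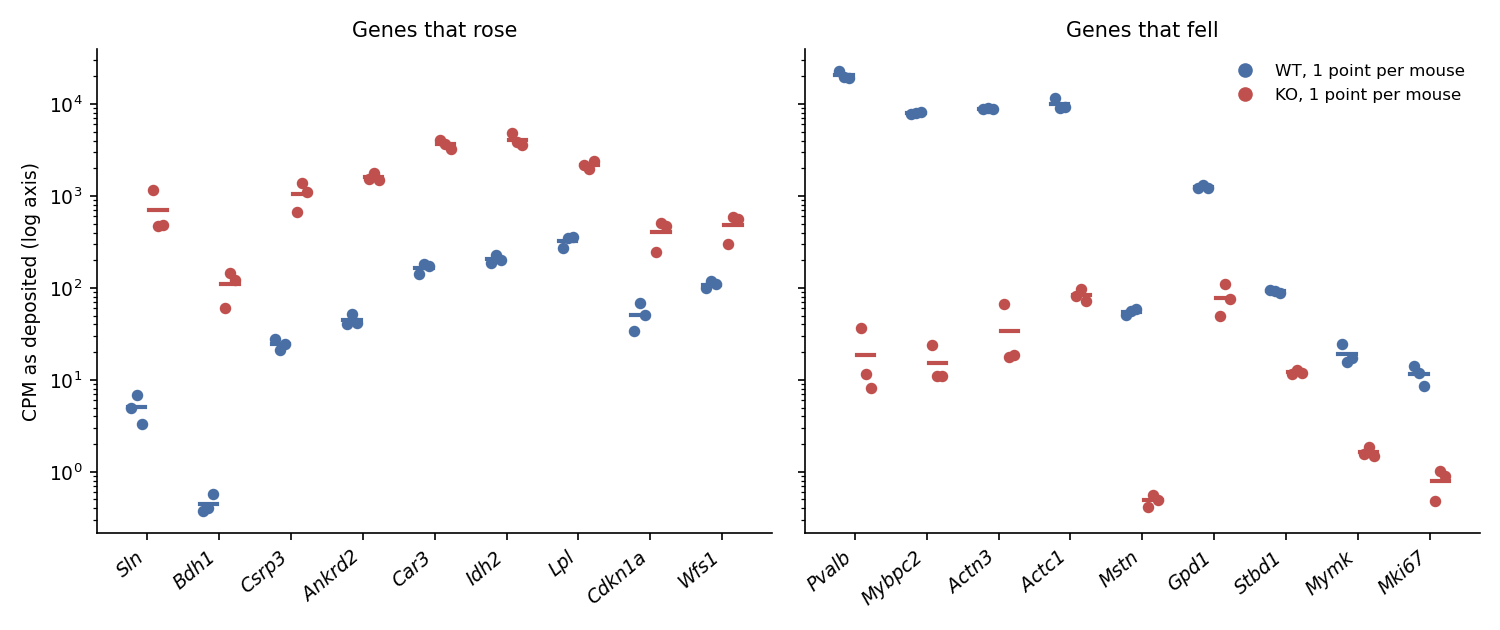
CPM (log axis) of 9 risen and 9 fallen genes, 1 point per mouse, with WT and KO side by side and a line at each group mean. All 18 were drawn from called genes whose WT and KO values do not overlap, so their points are apart by choice.

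Several genes outside these lists had fold changes as large. Bdh1, the mitochondrial enzyme of ketone body oxidation, measured 0.372, 0.4004 and 0.566 CPM in WT and 59.8, 146 and 123 CPM in KO (log2 fold change 6.77, SE 0.31). Lrrc52, an auxiliary subunit of potassium channels, measured 0.172, 0.767 and 0.283 CPM and 30.02, 78.6 and 65.7 CPM. In both genes KO1 had the lowest KO value, still above every WT library. Bpifb4, a member of a lipid-binding protein family, had 0, 1 and 0 reads in WT and 34.6, 18.5 and 14.9 CPM in KO. DESeq2, which adds no pseudocount and scales libraries otherwise, gave larger log2 fold changes for Bpifb4 and Bdh1 (10.64 and 7.57) than for Sln (6.78). Mettl21c, a muscle lysine methyltransferase, rose from 15.8, 15.7 and 13.8 CPM to 813, 454 and 445 CPM, with KO1 the highest. Cyfip2, part of an actin-regulating complex, rose from 1.23, 1.03 and 1.64 CPM to 20.8, 91.96 and 100.01 CPM, with KO1 the lowest. Prr32 and Pcp4l1, whose roles in muscle are little known, had log2 fold changes of 5.57 and 5.35.

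The fallen genes outside the contractile lists included Plcd4, a phospholipase C, at 146, 139 and 145 CPM in WT and 3.72, 2.14 and 2.19 CPM in KO. Ppp1r14c, an inhibitor of protein phosphatase 1, measured 199, 182 and 178 CPM and 5.85, 2.501 and 3.85 CPM. Dupd1, a dual-specificity phosphatase, and Pdzd7, a scaffold protein known from the inner ear, had log2 fold changes of -4.86 (SE 0.12) and -5.44 (SE 0.12). In these 4 genes all KO values were far below WT, and KO1 was the highest KO mouse for all but Pdzd7.

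Growth signals changed in part. Of 17 tested genes of insulin-like growth factor (IGF) and myostatin signalling, 5 rose and 3 fell, and 3 each after centring (median 0.69, centred 0.35). Without WT2, KO2 or KO3, 3 rose. Myostatin, the inhibitor of muscle growth, was nearly lost: Mstn stood at 50.2, 56.5 and 58.5 CPM in WT and 0.413, 0.5595 and 0.4904 CPM in KO (log2 fold change -5.81, SE 0.13, limma adjusted p 7.2e-07). Its antagonist follistatin rose, with Fst at 9.22, 7.94 and 7.11 CPM and 39.2, 33.6 and 41.5 CPM. Gdf11, the nearest relative of myostatin, and Igfbp5, an IGF-binding protein, fell with log2 fold changes of -1.43 and -2.24. Igf2 stood at 974, 814 and 827 CPM in WT and 7708, 2449.8 and 2733 CPM in KO, so that KO1 was far above the other KO mice, while Igf1 had a log2 fold change of 0.34 (-0.01 centred).

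The imprinted growth network, in which Igf2 and H19 share a domain, had 4 risen and 2 fallen genes of 15, or 3 and 2 after centring (median 0.55, centred 0.21). The noncoding RNA H19 had the greatest gain in CPM of all genes, from 9509.95, 8050.04 and 6948 CPM in WT to 50913, 26442 and 26391 CPM in KO. As for Igf2, KO1 was the highest. Cdkn1c, an imprinted inhibitor of cell division, fell from 302, 224 and 231 CPM to 63.7, 60.3 and 61.3 CPM, and Mest had a log2 fold change of -1.29. Dlk1 overlapped between groups (0.21, limma adjusted p 0.34). Members of the network thus did not move as a block.

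Among 14 glucocorticoid response genes 7 rose, and 6 after centring, with a median of 1.35 (1.005 centred). The chaperone Fkbp5 measured 6.04, 23.1 and 16.6 CPM in WT and 42.2, 143 and 148 CPM in KO, and the metallothionein Mt1 8.02, 35.9 and 13.8 CPM and 136, 143 and 112 CPM. Both varied within WT, where WT1 had the lowest value, but no KO value reached the WT range. Glutamine synthetase, Glul, stood at 162, 209.7 and 196 CPM and 724, 797 and 738 CPM, with less spread. Hormone levels were not measured in these libraries.

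Of 17 circadian clock genes, 3 rose and 1 fell (2 and 2 after centring; median -0.01, centred -0.35). Among those that rose were Npas2 and Arntl, with log2 fold changes of 1.83 and 1.11, and the repressor Bhlhe41 fell (-2.41). Arntl stood at 15.1, 15.1 and 19.04 CPM in WT and 19.7, 49.04 and 47.2 CPM in KO, so KO1 was close to WT. Arntl was not called without WT1 (1.06, limma adjusted p 0.069), without WT2 (1.05), without KO2 (0.89) or without KO3 (0.91). After centring it stood at 0.77 and lost its call (limma adjusted p 0.075), and edgeR and DESeq2 gave 0.86 and 0.85. Without KO1, 5 clock genes rose. The time of day of sampling was not used here.

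At the neuromuscular junction, 4 of 19 genes rose and 1 fell, and 3 each after centring (median 0.31, centred -0.03). Chrnd, the delta subunit of the acetylcholine receptor, rose from 7.88, 6.71 and 7.08 CPM to 29.99, 21.6 and 25.4 CPM, and Musk, the kinase that organizes the synapse, from 1.78, 1.902 and 3.21 CPM to 7.38, 5.99 and 8.19 CPM. Dach2, a regulator of the denervation response, rose from 0.201, 0.4004 and 0.535 CPM to 6.61, 4.84 and 5.73 CPM, while Gadd45a, another gene of that response, fell (log2 fold change -1.13). The fetal receptor subunit Chrng was lower in every KO library (2.75, 2.17 and 2.71 CPM and 1.399, 1.48 and 1.51 CPM), but did not pass the fold threshold in limma as deposited or after centring. With edgeR and DESeq2 its log2 fold change was -1.16 and -1.17. Its share of the fetal and adult subunits was 1.89, 1.55 and 1.99% in WT and 0.789, 1.06 and 0.767% in KO. With a minimum mean of 5 CPM, 2 members rose.

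Schwann cell markers, read beside the junction genes, rose in 6 of 8 cases, or 2 after centring (median 1.15, centred 0.80). Their sum was 314, 323 and 329.98 CPM in WT and 784, 719 and 687 CPM in KO, higher in all KO mice. None of the 8 was at 0. Their part in the junction result was not tested.

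Myogenic regulators had 3 fallen genes of 14 under both scalings (median 0.38, centred 0.04). Myomaker and myomixer, the membrane proteins by which myoblasts fuse, are listed as Tmem8c and Gm7325. Tmem8c measured 24.8, 15.7 and 17.1 CPM in WT and 1.56, 1.84 and 1.47 CPM in KO, and Gm7325 3.47, 2.202 and 2.17 CPM and 0.731, 0.395 and 0.792 CPM. Both were lower in every KO library. Eya4, a transcriptional cofactor, had a log2 fold change of -1.76. The myogenic factors Myod1, Myog and Pax7 did not pass, with Myod1 at 58.3, 42.6 and 59.4 CPM and 142, 42.5 and 44.5 CPM, where KO1 stood apart and the other KO mice lay near the lowest WT values. Without KO1 its log2 fold change was -0.28. Of 8 satellite cell markers 3 rose (2 centred): Chodl, Chrdl2 and Sdc4. Their sum went from 120.4, 131 and 134 CPM to 305, 397 and 402 CPM, led by Sdc4 (37.6, 48.4 and 46.04 CPM and 171, 250.2 and 232 CPM), while Pax7, the defining marker, overlapped at 3.81, 4.24 and 5.98 CPM and 5.56, 4.41 and 10.2 CPM. Their part in the changes of myogenic genes was not tested.

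Fuel use genes split by pathway. Of 17 glycolysis genes 12 fell and 2 rose, and 14 and 1 after centring (all genes 3.63% and 11.1%, and 6.17% and 5.89%), with a median of -1.61 (-1.96 centred). Gpd1, which turns a glycolytic intermediate into glycerol phosphate, stood at 1224, 1307 and 1214 CPM in WT and 50.02, 109.7 and 75.2 CPM in KO (log2 fold change -4.06, SE 0.25). The lactate exporter Slc16a3 measured 329.7, 378 and 319 CPM and 39.2, 38.97 and 37.6 CPM, and lactate dehydrogenase Ldha 3392, 3326 and 2874 CPM and 680.1, 712 and 665 CPM. No groups overlapped, and the KO mice were close together for Slc16a3 and Ldha but not for Gpd1. The risen genes were the glucose transporter Slc2a4 (log2 fold change 1.12, 0.77 centred) and Pfkfb1 (1.47), whereas Pfkfb3 of the same enzyme family fell (-2.10).

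Glycogen breakdown followed, with 5 fallen and 1 risen of 16 glycogen genes, or 7 and 0 after centring (median -0.31, centred -0.66). Phkg1, the catalytic subunit of phosphorylase kinase, measured 620.4, 658 and 659 CPM in WT and 47.9, 80.7 and 84.2 CPM in KO, and the glycogen-binding protein Stbd1 94.4, 92.4 and 88.9 CPM and 11.4, 12.8 and 11.9 CPM. Pygm, the muscle phosphorylase, had a log2 fold change of -1.93 (SE 0.11). Gys1, glycogen synthase, rose (1.13 as deposited, 0.78 centred). Without KO1 3 members rose, and without WT1 2.

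Fatty acid uptake and oxidation showed the reverse, and its size depended on the scaling. Of 22 genes 19 rose as deposited but 7 after centring, against 11.1% and 5.89% of all genes, with a median of 1.21 (0.87 centred). In 21 of the 22 the KO values all lay over the WT values, as in 52% of all genes. Lipoprotein lipase, Lpl, measured 271, 352 and 356 CPM in WT and 2194, 1974 and 2426 CPM in KO, the fatty acid transporters Slc27a1 63.03, 99.2 and 75.7 CPM and 589.5, 348 and 427 CPM, and Cd36 315, 391 and 364 CPM and 1381, 1566 and 1609 CPM. Medium-chain acyl-CoA dehydrogenase, Acadm, had a log2 fold change of 1.88 (SE 0.12). The muscle carnitine palmitoyltransferase Cpt1b was listed at a low level and did not pass the fold threshold (1.09, 1.57 and 1.605 CPM and 2.32, 1.91 and 3.58 CPM). These values came from 38, 47 and 51 reads in WT and 73, 58 and 95 reads in KO. The reason for so few reads was not tested.

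Targets of the lipid-sensing PPAR receptors rose in 11 of 19 cases under both scalings, against 11.1% and 5.89% of all genes (median 1.49, centred 1.14). Angptl4, an inhibitor of Lpl, measured 10.3, 13.8 and 12.3 CPM in WT and 171, 81.5 and 70.4 CPM in KO, and the lipid droplet protein Plin5 29.5, 41.4 and 29.4 CPM and 175, 201 and 193 CPM. Pdk4, which blocks pyruvate oxidation, stood at 355, 759.6 and 629.6 CPM and 1499, 2654 and 2885 CPM. All were above WT in each KO library. The coactivator Ppargc1a overlapped between groups (23.2, 26.4 and 37.7 CPM and 34.7, 34.9 and 40.03 CPM).

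Adipocyte markers were higher as well. Of 10 genes 9 were tested, all 9 rose under both scalings (median 2.60, centred 2.26), and none was at 0 in all libraries. Their sum was 487, 524 and 456 CPM in WT and 5161, 4957 and 4219.9 CPM in KO, led in KO by Car3, at 139.9, 180.2 and 171 CPM and 4093, 3632 and 3221 CPM. Car3 and Lipe are also made by muscle fibers and Fabp4 by endothelial cells. Without Car3 the sum was 347, 344 and 284 CPM in WT and 1068, 1324 and 999 CPM in KO, still higher in all KO mice. Cfd, an adipocyte serine protease, measured 13.6, 14.4 and 9.35 CPM and 176, 217 and 91.98 CPM, and Retn, the hormone resistin, 1.12, 1.101 and 0.787 CPM and 13.04, 18.6 and 9.92 CPM. Adipoq, the defining adipocyte hormone, singled out after its values were seen, stood at 4.297, 3.94 and 2.42 CPM and 25.3, 33.9 and 15.1 CPM. Of the brown adipocyte markers, 2 of 4 tested rose (1 centred), with a sum of 657, 745 and 624 CPM in WT and 999.6, 1306 and 1151 CPM in KO, led by Cox8b, a respiratory chain gene of muscle too. Cox8b alone measured 324, 402 and 326 CPM in WT and 779, 918 and 818 CPM in KO, and the rest of the sum overlapped between groups. Ucp1, which defines that cell, did not pass and overlapped (7.36, 1.07 and 0.2203 CPM and 0, 2.995 and 0.264 CPM). The part of these markers in the fatty acid and PPAR results was not tested.

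The respiratory chain changed little beside these. Of 36 nuclear-encoded complex I genes none was called by limma, edgeR or DESeq2, with a median of 0.24 (-0.11 centred), below the all-gene median. At an unadjusted p under 0.05, 17 were higher and 1 lower. By adjusted p alone, a stricter rule, 5702 of all 12421 genes were higher and 1093 lower. Complexes II to V had 3 of 42 risen, Cox6a2, Cox8a and Cox8b, and 0 after centring, by edgeR or by DESeq2 (median 0.26, centred -0.09). Of these 42, 21 had an unadjusted p under 0.05 on the higher side, to be read against the same counts of all genes. Subunits encoded by mitochondrial DNA were not listed under the symbols searched and are not analysed here. In the TCA cycle 1 of 15 genes rose as deposited (median 0.13, centred -0.22). After centring, by edgeR and by DESeq2, 1 fell as well. The risen gene was Idh2, the NADP-dependent isocitrate dehydrogenase, at 188, 230.2 and 201 CPM in WT and 4808, 3850.2 and 3564 CPM in KO (log2 fold change 4.29, SE 0.14). Citrate synthase, Cs, a common measure of mitochondrial content, overlapped at 1399, 1474 and 1331 CPM and 1369, 1381 and 1308 CPM.

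Sterol and fatty acid synthesis had 4 risen and 1 fallen of 21 genes, or 2 and 3 after centring (median 0.18, centred -0.16). The acetyl-CoA carboxylase Acaca rose from 7.28, 6.41 and 6.92 CPM to 35.3, 28.3 and 33.1 CPM, and Acacb, Fasn and Lss had log2 fold changes of 1.40, 1.34 and 1.19. Malic enzyme, Me1, fell (-1.03), but without KO1 it stood at -0.91 and no member fell. In polyamine metabolism 2 of 8 genes fell under both scalings, spermine synthase, Sms, and spermine oxidase, Smox (log2 fold changes -1.28 and -1.69; list median 0.08, centred -0.26). Odc1, the first enzyme of the pathway, overlapped between groups at 55.9, 45.8 and 44.3 CPM and 96.8, 37.9 and 40.8 CPM, with KO1 apart from the rest and a log2 fold change of -0.30 without it.

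**Figure D4:**
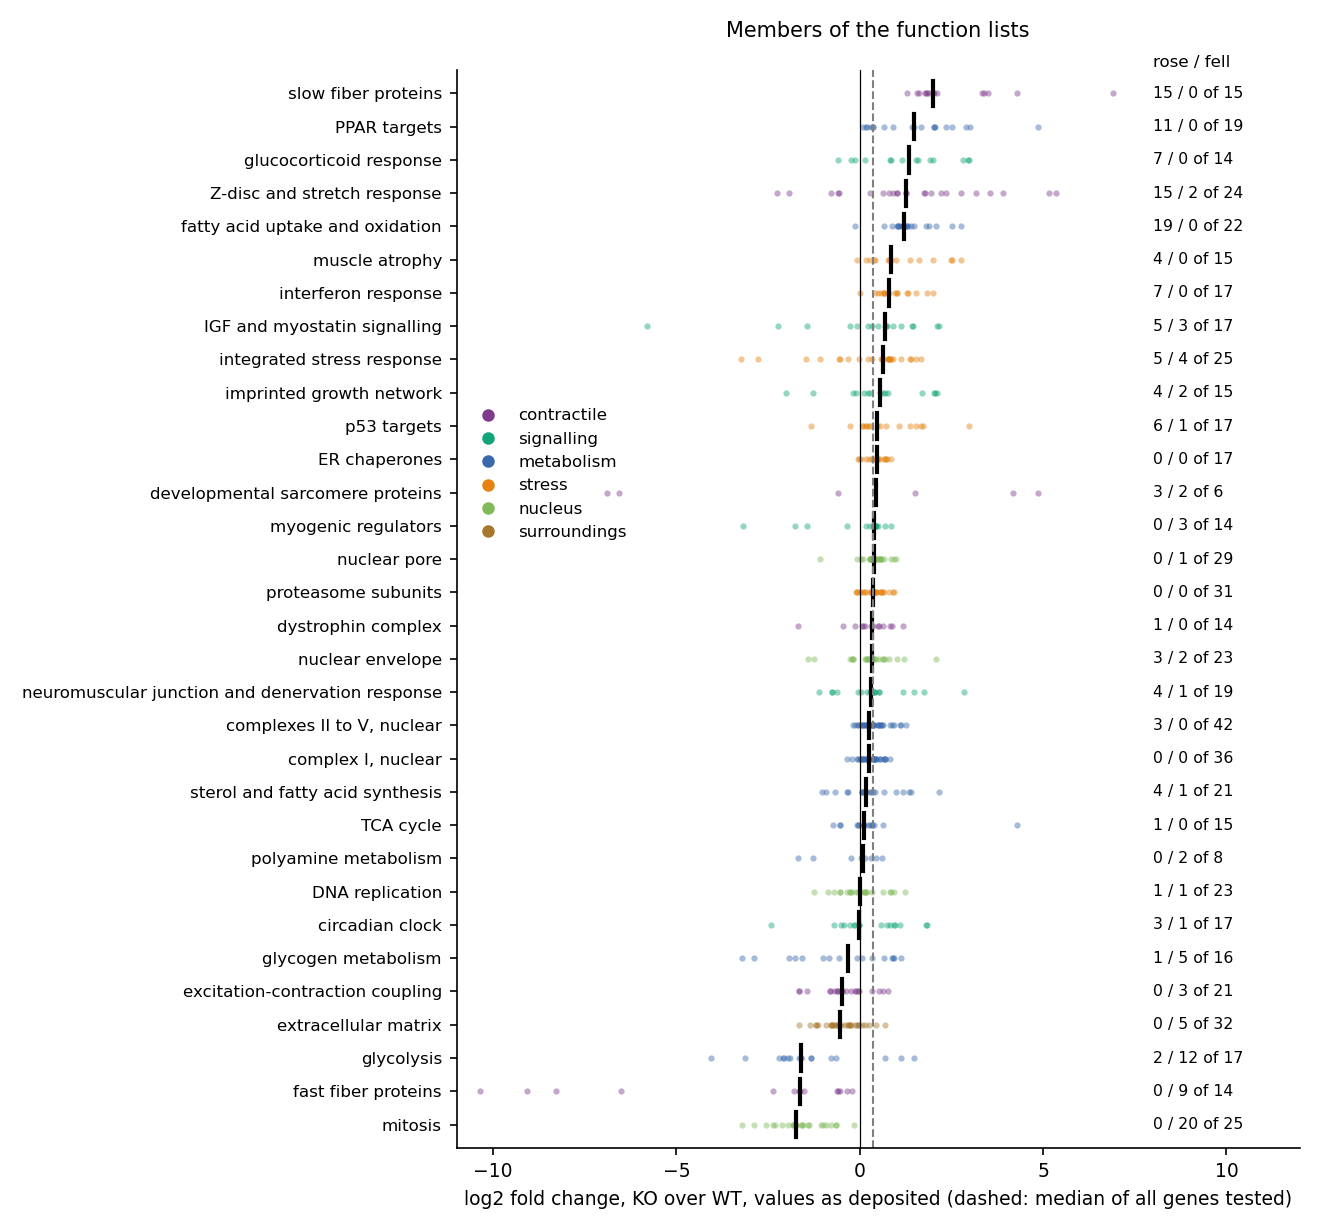
Log2 fold change (horizontal axis) of the tested members of each function list, 1 point per gene, colored by the kind of list, with a black bar at the list median, a dashed line at the all-gene median of 0.35 and the numbers that rose and fell at the right. The list medians of slow fiber proteins, fatty acid oxidation and PPAR targets lie to the right of the all-gene median, and those of fast fiber proteins, glycolysis and mitosis to its left.

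Stress programs were uneven. The integrated stress response, which acts through the transcription factor Atf4, had 5 risen and 4 fallen of 25 genes, or 3 and 4 after centring (median 0.64, centred 0.30). Atf3 measured 13.1, 26.8 and 15.4 CPM in WT and 41.7, 49.8 and 89.5 CPM in KO, the mTOR inhibitor Ddit4 35.8, 117 and 58.8 CPM and 162, 208 and 184 CPM, and the eIF2alpha phosphatase subunit Ppp1r15a 20.5, 14.7 and 19.2 CPM and 59.1, 42.4 and 42.8 CPM. Each was above WT in all KO mice, with wide spread for Atf3 and Ddit4. Those that fell were Gpt2, an alanine aminotransferase (134, 250.3 and 216 CPM and 15.7, 23.9 and 21.9 CPM), Chac1, which degrades glutathione (37.2, 47.7 and 33.1 CPM and 1.88, 9.68 and 7.51 CPM), and the proline synthesis enzymes Pycr1 and Aldh18a1 (log2 fold changes -1.47 and -1.10). Without KO1 Aldh18a1 stood at -0.87 and was not called. The secreted stress hormones Fgf21 and Gdf15 were under the filter on low values. Atf4 itself had a log2 fold change of 0.76 (0.42 centred) and did not pass the fold threshold.

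Promoters of this list were searched for TGATGNAA, the core of the C/EBP-ATF response element, on both strands, in RefSeq windows of GRCm38.p6 from 250 bases before to 50 after each start site. It was found in 9 of 31 windows (9 of 26 genes), against 3.97% of 32851 windows of all genes. Both risen and fallen members held it: 2 of the 4 risen genes with a window and 2 of the 4 fallen ones. The stretches around it are shown for these genes because the same letters occur beside opposite changes, with the match in capitals on either strand.
Trib3: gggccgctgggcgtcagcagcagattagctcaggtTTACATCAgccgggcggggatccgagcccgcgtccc
Atf3: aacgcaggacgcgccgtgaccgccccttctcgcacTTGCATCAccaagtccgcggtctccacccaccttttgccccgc
Chac1: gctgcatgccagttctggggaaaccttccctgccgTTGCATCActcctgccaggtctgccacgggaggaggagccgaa
Pycr1: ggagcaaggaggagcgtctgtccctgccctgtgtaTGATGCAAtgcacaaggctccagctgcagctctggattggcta
They lie at chr2:152344011-152344081 (reverse strand), chr1:191183401-191183478 (reverse), chr2:119351014-119351091 (forward) and chr11:120643809-120643886 (reverse). Trib3, a pseudokinase, had a log2 fold change of 1.13 and 0.79 after centring. A match describes the letters of the window, and binding was not measured in these libraries.

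Chaperones of the endoplasmic reticulum had 0 calls of 17 by limma, edgeR or DESeq2, with a median of 0.47 (0.13 centred). Of these 17, 11 had an unadjusted p under 0.05 on the higher side (5702 of all 12421 genes by adjusted p alone, a stricter rule). Hspa5, the main one, had a log2 fold change of 0.75 (0.40 centred). Without KO1, 1 member rose. Of the 31 proteasome subunits none was called by the 3 tools, and the median was 0.35, that of all genes (0.01 centred). An unadjusted p under 0.05 was seen for 23 subunits, all on the higher side (5702 of all 12421 genes by adjusted p alone, a stricter rule). With a term for mouse name letters, 1 subunit rose.

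Of 17 targets of the tumor suppressor p53, 6 rose and 1 fell, or 5 and 1 after centring (median 0.48, centred 0.14). Cdkn1a, the p21 inhibitor of cell division, measured 34.03, 67.8 and 50.3 CPM in WT and 244, 510.2 and 471 CPM in KO, and Fas, a death receptor, 4.35, 7.81 and 5.54 CPM and 13.5, 25.4 and 23.2 CPM. Both were lowest in KO1 among KO mice and in WT1 among WT mice, without overlap between groups. Sesn1 and Eda2r had log2 fold changes of 1.68 and 1.53, and Ccng1 fell (-1.33). Mdm2, a direct and widely used target, overlapped at 45.3, 43.5 and 51.5 CPM and 46.6, 46.9 and 51.3 CPM.

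Muscle atrophy genes rose in 4 of 15 cases under both scalings (median 0.84, centred 0.50). The ubiquitin ligase Fbxo32 measured 45.4, 71.4 and 77.7 CPM in WT and 377, 450.3 and 459.7 CPM in KO, the mitophagy receptor Bnip3 108, 108 and 106 CPM and 667, 574 and 580.3 CPM, and the autophagy gene Gabarapl1 27.6, 28.8 and 29.2 CPM and 152, 178 and 165 CPM. The lysosomal protease Ctsl had a log2 fold change of 1.99. Trim63, the other ubiquitin ligase usually read for atrophy, had a log2 fold change of 0.17 (-0.17 centred) and was not called, so the ligases did not move alike.

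Interferon response genes were at low levels, and 7 of 17 rose, or 3 after centring (median 0.79, centred 0.44). The antiviral gene Rsad2 measured 2.32, 1.702 and 1.83 CPM in WT and 7.95, 7.04 and 9.66 CPM in KO, and the transcription factor Irf7 2.69, 3.07 and 2.55 CPM and 4.897, 13.2 and 10.8 CPM. KO values were above WT values in both. Without WT2 or without KO3, 4 members rose, as with a minimum mean of 5 CPM, and 3 with a term for mouse name letters.

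Mitosis genes fell together. Of 31 genes 25 passed the filter on low values, and a gene could pass it on its WT level alone. Of these 20 fell, and 24 after centring, against 3.63% and 6.17% of all genes, with a median of -1.73 (-2.07 centred), and in all 25 the KO values lay under the WT values, as in 11% of all genes. The proliferation marker Mki67 measured 14.04, 11.9 and 8.56 CPM in WT and 0.477, 1.02 and 0.905 CPM in KO, from 15, 31 and 24 reads in the latter. Topoisomerase Top2a measured 10.3, 9.24 and 6.105 CPM and 0.445, 0.757 and 0.943 CPM, cyclin Ccna2 9.05, 6.97 and 5.48 CPM and 0.382, 1.18 and 0.868 CPM, and the spindle protein Prc1 7.59, 4.84 and 3.87 CPM and 0.3498, 0.856 and 0.717 CPM. KO1 had the lowest KO value of all 4. DESeq2 on recovered reads, which adds no pseudocount and scales libraries otherwise, gave -4.23 for Mki67, against -3.21 in limma and -3.55 centred. With a minimum mean of 5 CPM, 2 members were tested and 1 fell.

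Of 23 genes of DNA replication tested 1 rose and 1 fell, or 0 and 3 after centring and 0 and 4 by edgeR and by DESeq2, and 18 lay below the all-gene median (median -0.01, centred -0.35). Mcm5 fell and Mcm6 rose, both subunits of the same helicase, with 6.79, 5.47 and 3.68 CPM and 1.49, 2.27 and 1.96 CPM for Mcm5 and 9.34, 8.41 and 7.77 CPM and 22.3, 19.1 and 20.2 CPM for Mcm6. The sliding clamp Pcna overlapped at 18.6, 14.8 and 16.7 CPM and 20.002, 19.6 and 18.3 CPM. Without WT1 or without KO2, 2 members rose, and with a term for mouse name letters 2 rose as well. Without the filter on low values 2 fell, and with a minimum mean of 5 CPM 0 fell.

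Since the mitosis members moved together, their promoters were searched in the same windows for TTTGAA, the core of the cell cycle genes homology region, and for CCAAT, which often accompanies it, on both strands. TTTGAA occurred in 20 of 27 windows (18 of 25 genes), against 17.9% of all 32851 windows, and CCAAT in 21 of 27, against 37.4%. Of the 15 fallen genes with a window, 13 held TTTGAA and 12 CCAAT. The stretches of 3 fallen genes are shown with TTTGAA in capitals.
Mki67: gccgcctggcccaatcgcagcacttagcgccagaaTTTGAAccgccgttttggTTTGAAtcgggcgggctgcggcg
Top2a: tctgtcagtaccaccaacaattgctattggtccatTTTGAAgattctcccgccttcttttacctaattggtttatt
Prc1: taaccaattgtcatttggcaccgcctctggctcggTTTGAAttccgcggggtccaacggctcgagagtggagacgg
They lie at chr7:135716455-135716530 (reverse strand), chr11:99024328-99024403 (reverse) and chr7:80294411-80294486 (forward). The first stretch holds the motif more than once. A match is a description of the sequence, and no factor was measured at these sites.

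Genes of the nuclear envelope itself, where the Net39 protein resides, moved in both directions. Of 23 tested 3 rose and 2 fell, so 21.7% were called, against 14.7% of all genes. After centring 1 rose and 2 fell, where 5.89% and 6.17% of all genes did. The list median was 0.33 (-0.02 centred), close to that of all genes. The B-type lamins fell: Lmnb1 stood at 21.9, 18.5 and 17.2 CPM in WT and 11.5, 6.45 and 6.19 CPM in KO, and Lmnb2 at 25.5, 18.9 and 18.7 CPM and 6.07, 7.73 and 9.05 CPM. Lmna, which encodes lamins A and C, rose from 155, 149 and 133 CPM to 419.9, 295 and 298 CPM (log2 fold change 1.19, 0.85 centred), and emerin, Emd, from 21.8, 22.4 and 19.6 CPM to 46.2, 45.5 and 39.6 CPM (1.02, 0.68 centred). Neither kept its call on centring, and Emd lost it without WT3 (0.97), KO1 (0.98) or KO2 (0.995). Wfs1, a membrane protein of the endoplasmic reticulum and envelope, rose under both scalings, from 99.5, 118 and 109.8 CPM to 299, 590.5 and 560.2 CPM.

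The other envelope genes did not pass. The LEM domain gene Lemd2 had a log2 fold change of 0.79 (0.45 centred), with 36.5, 35.1 and 31.2 CPM in WT and 60.1, 60.4 and 58.3 CPM in KO. Among proteins that link the envelope to the cytoskeleton, Sun1, Sun2, Syne1 and Syne2 had log2 fold changes of 0.33, 0.39, 0.14 and 0.53, all between -0.20 and 0.19 once centred. Tmem38a, a potassium channel of muscle membranes found in the envelope too, was abundant at 2027, 1925 and 1806 CPM and 1771, 1759 and 1575 CPM. Lbr, Tmpo, Banf1 and Tmem43 had log2 fold changes of 0.40, -0.21, 0.24 and -0.26. Of 29 nuclear pore genes 1 fell under both scalings, the membrane nucleoporin Nup210, at 27.2, 28.5 and 39.7 CPM and 16.5, 10.9 and 16.7 CPM (list median 0.37, centred 0.03). Without WT3 0 fell (Nup210 at -0.92) and 3 rose, without KO2 0 fell (-0.89), without KO1 2 rose and without WT2 1 rose.

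Extracellular matrix genes changed in part. Of 32 genes 5 fell, and 11 after centring, against 3.63% and 6.17% of all genes, with a median of -0.54 (-0.88 centred), and 30 of 32 lay below the all-gene median. Col1a1, a chain of fibrillar collagen, measured 1994, 1691 and 1328 CPM in WT and 684, 704 and 871 CPM in KO, and Col15a1, a basement membrane collagen, 298, 287 and 334 CPM and 68.6, 135 and 177 CPM. Tenascin C, Tnc, had a log2 fold change of -1.65 (SE 0.15). Col3a1 did not pass as deposited (-0.70) but did after centring (-1.04), and stood at -1.02 by edgeR and -1.03 by DESeq2. In each of these genes the KO values lay below the WT values, and KO1 was the lowest for both Col1a1 and Col15a1. Without KO1 Col15a1 stood at -0.98 and was not called.

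Markers of the cells that make matrix were read beside it. Of 8 fibroblast markers 1 rose, Ly6a, while after centring none rose and 1 other fell, with a sum of 308, 322 and 297 CPM in WT and 236, 347 and 341 CPM in KO that overlapped, led by Lum. Of 5 tendon cell markers Tnmd and Kera fell and Scx rose, while after centring 3 fell and Scx (0.75) was not called, with a sum of 394, 321 and 277 CPM and 268, 129 and 197 CPM led by Fmod. In the tendon list all KO sums were below the WT sums. Pericyte or smooth muscle markers summed to 941, 843 and 808 CPM and 541, 589 and 691 CPM, with a median of 0.81 (0.47 centred). Of these 7 markers, 5 had an unadjusted p under 0.05 on the higher side (5702 of all 12421 genes by adjusted p alone, a stricter rule). There Acta2, the most abundant, fell (705, 597 and 487 CPM and 177, 185 and 156 CPM) while Myh11 rose (1.13, 0.79 centred, and 0.98 without WT1, where it was not called). Without Acta2 the sum was higher in all KO mice, at 236, 246 and 321 CPM in WT and 364, 404 and 535 CPM in KO. Smooth muscle actin is also made by immature muscle fibers. The part of these markers in the matrix result was not tested.

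Vascular and blood cell markers differed among themselves. None of the 9 endothelial cell markers was called by limma, edgeR or DESeq2, and their sum overlapped, at 714, 702 and 789.8 CPM and 723, 827 and 1008 CPM. At an unadjusted p under 0.05, 4 were higher and 1 lower (5702 and 1093 of all 12421 genes by adjusted p alone, a stricter rule). Of 10 macrophage markers tested 1 fell, and 2 after centring, by edgeR and by DESeq2. The former was Mrc1, a receptor of resident macrophages, which fell from 33.1, 28.8 and 36.6 CPM to 5.66, 8.89 and 8.22 CPM, while the sum was 147, 105 and 109 CPM in WT and 66.3, 98.7 and 90.9 CPM in KO, lower in all KO mice. Without Mrc1 it overlapped, at 114, 76.5 and 71.97 CPM and 60.6, 89.8 and 82.7 CPM, and the list median was -0.10 (-0.44 centred). Mast cell markers rose in 4 of 5 cases (3 centred), with sums of 18.9, 14.3 and 17.3 CPM and 39.9, 35.7 and 31.7 CPM, led in WT by Kit, which overlapped between groups. The protease Mcpt4 measured 2.58, 2.102 and 2.55 CPM and 7.92, 8.92 and 7.696 CPM.

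Few markers of other cells passed the filter on low values. Neutrophil markers summed to 0.716, 0.167 and 0.189 CPM in WT and 1.399, 2.37 and 1.24 CPM in KO, T or NK cell markers to 2.32, 0.601 and 0.755 CPM and 0.477, 0.922 and 0.566 CPM and B cell markers to 2.86, 1.301 and 1.13 CPM and 1.304, 3.23 and 2.19 CPM. None of the neutrophil or T or NK markers passed the filter. The 4 hemoglobin genes were listed at 0 in all libraries, so red blood cells could not be read from them, and the erythroid sum of 25.1, 26.96 and 11.7 CPM and 16.4, 23.3 and 16.4 CPM came mostly from Alas2. Keratinocyte markers summed to 3.72, 3.04 and 2.77 CPM and 3.47, 4.94 and 3.395 CPM, with Krt5 at 0 in all libraries and Krt14 and Krt1 at 3 reads or fewer. Cartilage or bone markers summed to 44.9, 30.1 and 27.98 CPM and 21.9, 87.1 and 52.5 CPM, led by Col2a1, and 1 of 4 tested fell, Dmp1.

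**Figure D5:**
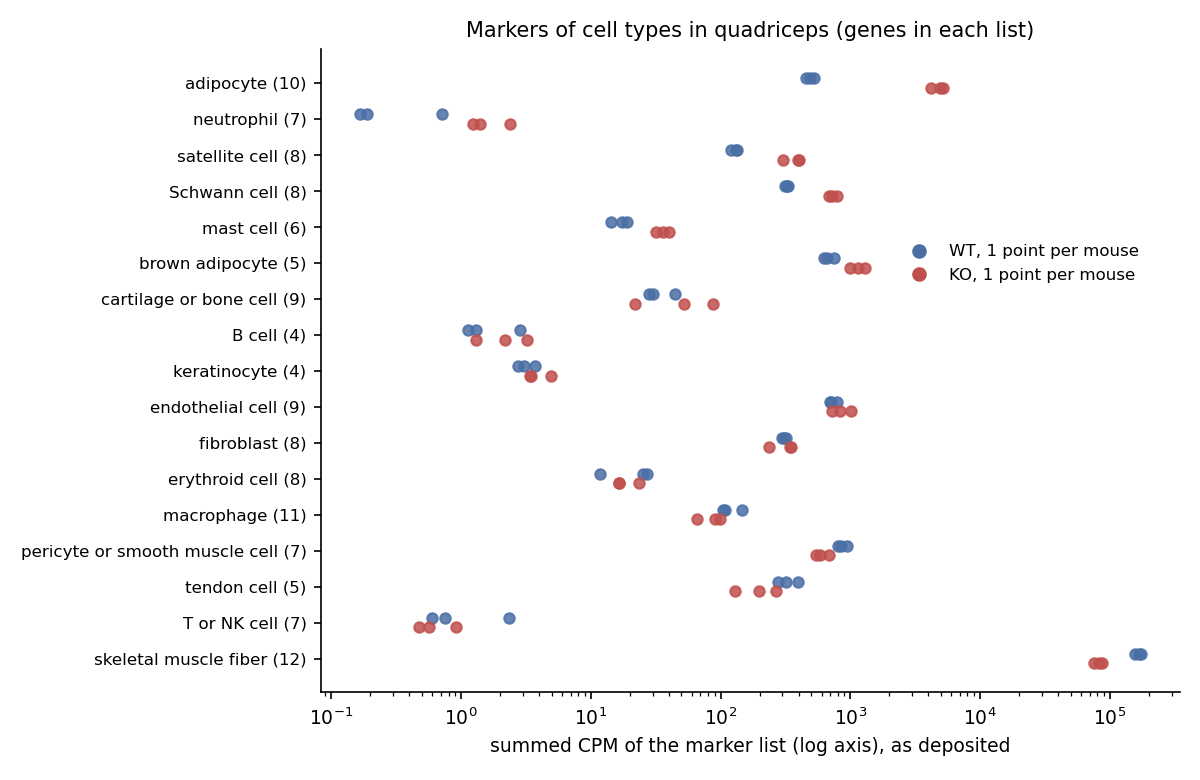
Summed CPM (log axis) of the markers of each cell type, 1 point per mouse, WT and KO, with the number of genes in each list. Adipocyte, Schwann, mast and satellite cell markers lie higher in every KO mouse, as do brown adipocyte markers through Cox8b and neutrophil markers at low levels. Skeletal muscle fiber and tendon markers lie lower, as do pericyte or smooth muscle markers through Acta2 and macrophage markers through Mrc1. Endothelial and fibroblast markers overlap.

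The mice of a group were alike for most genes. The SD of a gene on the log2 scale had a median of 0.146 in WT and 0.172 in KO, and 0.176 and 0.237 among risen genes. Of the KO mice KO1 stood apart most often: in it 246 genes (1.98% of those tested) were over 2-fold outside both other KO mice, 93 above and 153 below, against 19 in KO2 and 80 in KO3, and 14 to 110 in the WT mice. Igf2, Sln, Myod1 and Odc1 were among those high in KO1 and Cyfip2, Fkbp5 and Arntl among those low. The first principal component of the log2 values held 80.04% of the variance and separated KO from WT, and the second, with 9.996%, had KO1 and KO3 at its ends. The mice carry names with the letters NM (WT1, WT2 and KO1), NN (WT3 and KO2) or NQ (KO3), whose meaning is not given in the sources used here. On this component the NM mice stood at 13.99, 2.06 and 27.5 and the others at -17.7, -4.52 and -21.4. KO1 is the only KO mouse with NM, so a single mouse apart and a difference by letters cannot be told apart for it. With a term for the letters 1823 genes passed, 1304 risen and 519 fallen, and 1627 of them were called the same way without it. Without KO1, 1465 genes rose and 454 fell, and after centring 761 and 796.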

How the data were processed

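P17 values were used as deposited: CPM that the authors had made by dividing gene reads by the reads on genes of the library. The authors had aligned single-end reads to GRCm38 with HISAT2 2.1.0 and counted them with featureCounts 1.6.2. In every column 100% of values are whole multiples of the smallest one (tolerance 0.1), and division by it gave back the reads. All 6 columns were assigned to a group by their names, and replicates are separate mice by the series design. The P9 table was not used here.

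Values were fitted as log2(CPM + 0.5) on genotype alone by limma 3.58.1 with a trend in variance (R 4.3.3), with Benjamini-Hochberg adjustment over genes. A gene rose or fell if its adjusted p was under 0.05 and its absolute log2 fold change above 1. The same fit after subtraction of each library's median over tested genes is called centred. On recovered reads, edgeR 4.0.16 called 1679 genes and DESeq2 1.42.0 called 1701. Isoform shares used union exon lengths of GENCODE M21 and exact permutation tests. Steps were tested on simulated data in which equal numbers of genes rose and fell by the same factor. No shift in read shares like the one seen here was built in, so the choice of scaling was not tested. Tables were handled in Python 3.11.15 and plots drawn with matplotlib 3.10.9.

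Members and lists were chosen with earlier results of these data known. Of 788 list genes 774 were matched by symbol. Genes were named from these: the deleted gene, isoforms, nuclear envelope genes, anchor genes of each list, up to 4 called members per list and direction without overlap by fold, and per direction the 12 largest by fold (mean of at least 5 CPM) and the 6 largest by CPM, clone-like names skipped. List members named outside this rule, among them Adipoq, Ucp1 and the most abundant markers, were chosen after their values were seen. Some list members that count in the lists are not reported here by name. Alternatives tried were other pseudocounts, filters, scalings and tests, a term for mouse name letters, isoform shares without division by length, and leaving out each library.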

Additional observations from a re-analysis of the deposited data

How the results depend on the processing

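As deposited 1373 genes were higher in KO and 451 lower. Each setting gave its own calls: 732 and 766 after median centring, 753 and 741 after quantile normalization, 756 and 739 with TMM factors, 835 and 844 with edgeR and 837 and 864 with DESeq2. By adjusted p alone, without the fold threshold, 6795 genes passed, 5702 higher and 1093 lower, and 412 list genes in place of 202. With the fold threshold kept, the total lay between 1400 and 2023 over all settings. Leaving out 1 library gave 1780 to 1919 genes, 1287 to 1465 higher and 433 to 498 lower. Of 3347 values for 187 named genes, 3148 kept direction and call, 107 lost the call, 26 gained it and 66 changed sign, all in 18 genes that were not called. Of 1152 list counts, 1006 stayed within 1.5 times. The log2 fold changes with the other sign were as follows. After quantile normalization, Acta1 0.15, Banf1 -0.15, Dlk1 -0.16, Igf1 -0.0468, Mdm2 -0.32, Myh1 0.25, Myod1 -0.0881, Odc1 -0.25, Pcna -0.14, Ppargc1a -0.017, Sun1 -0.0644, Syne1 -0.24, Tnni2 0.33, Tnnt3 0.55, Trim63 -0.21. With a term for mouse name letters, Alas2 0.0828, Mdm2 -0.0177. After median centring, Banf1 -0.11, Dlk1 -0.13, Igf1 -0.00617, Mdm2 -0.30, Myod1 -0.0585, Odc1 -0.21, Pcna -0.14, Sun1 -0.0161, Syne1 -0.20, Trim63 -0.17. With TMM factors, Banf1 -0.12, Dlk1 -0.14, Igf1 -0.0138, Mdm2 -0.30, Myod1 -0.066, Odc1 -0.22, Pcna -0.14, Sun1 -0.0244, Syne1 -0.21, Trim63 -0.18. With edgeR, Banf1 -0.13, Dlk1 -0.15, Igf1 -0.0231, Mdm2 -0.32, Odc1 -0.0775, Pcna -0.15, Ppargc1a -0.0325, Sun1 -0.0322, Syne1 -0.22, Trim63 -0.19. With DESeq2, Banf1 -0.13, Dlk1 -0.16, Igf1 -0.0299, Mdm2 -0.32, Odc1 -0.0819, Pcna -0.16, Ppargc1a -0.0411, Sun1 -0.0397, Syne1 -0.23, Trim63 -0.20. Leaving out 1 library, Alas2 -0.44 to 0.16, Col2a1 -0.25 to 1.19, Kit -0.51 to 0.0728, Mdm2 -0.00313 to 0.12, Myod1 -0.28 to 0.58, Odc1 -0.30 to 0.37.

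No paired analysis was possible because the table columns carry mouse names without replicate numbers. The letters in those names (NM, NN and NQ) are split unevenly over the groups and were fitted as a term, with 1823 genes called, 1304 higher and 519 lower. A sex term was not run, since no library shows more than 1 read of a Y-linked gene and all have Xist. The paper states that males and females were used for each genotype, and these libraries do not show males. Groups of 3 mice can miss small changes, and a mouse left out leaves 2 in its group. CPM are relative, so neither scaling gives absolute amounts. Whole muscle holds many cell types, and fiber composition and RNA per fiber cannot be told apart. Recovered reads carry no molecular identifiers.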
